A study of Mus musculus with 20 samples.

Results

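L1td1, Il6st and Rif1 are 3 genes known from work on pluripotent cells, and their levels were followed from the mouse oocyte to the blastocyst. They were chosen by name: every probe set that the array's annotation assigns to 1 of these genes, older names being traced through Entrez identifiers, was taken whatever its values. The rule found 4 probe sets among 22511 other than controls, which stand for 3 of the 9607 named genes on the array. L1td1 has 1457314_at, Il6st has 1437303_at, and Rif1 has 1437179_at and 1442939_at. All 4 were bright enough to be tested, among 15234 tested probe sets.

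RNA was measured on 20 Affymetrix MOE430B arrays, 4 per stage, of mouse oocytes and of 1-cell, 2-cell, 8-cell and blastocyst embryos. Before hybridization the total RNA was amplified by in vitro transcription in 2 rounds. The labels give no strain, age, treatment or genotype, do not say whether the oocytes were mature, and leave unsaid whether replicates were collected separately, so the tests may rest on technical spread alone. RNA was pooled over the cells of each oocyte or embryo sample, so fewer cells of a type and less RNA per cell cannot be told apart.

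L1td1 encodes an RNA-binding protein whose coding sequence descends from the first open reading frame of a LINE-1 retrotransposon. It is best known from human and mouse embryonic stem cells, and in human stem cells it has been found in complexes with LIN28. Il6st encodes gp130, the receptor chain shared by the interleukin-6 family of cytokines; with a ligand-specific chain such as the receptor for leukaemia inhibitory factor it signals through Janus kinases to Stat3, the route by which that factor sustains mouse embryonic stem cells. Rif1 encodes a large chromosomal protein that acts with Trp53bp1 at broken DNA ends, sets the timing of replication through protein phosphatase 1, and takes part in silencing in mouse embryonic stem cells.

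Only L1td1 had its highest level in the blastocyst. Il6st was lowest at the 8-cell stage and had its highest mean at the 1-cell stage, and Rif1 was lowest in the blastocyst. The label of pluripotency genes therefore describes their known roles and not a shared time course in these embryos. Pou5f1, Nanog, Sox2, Lif and Lifr were not analysed here.

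The summed oocyte markers set the 2-cell, 8-cell and blastocyst stages apart, but did not separate oocytes from 1-cell embryos. The summed intensity of 11 measured oocyte genes was 123700 to 154000 in oocytes, 132600 to 157600 in 1-cell embryos, 38990 to 97940 in 2-cell embryos, 5922 to 6782 in 8-cell embryos and 21560 to 26010 in blastocysts. The sum over 5 trophectoderm and epithelial genes was 10550 to 15340 in blastocysts, against 1294 to 1571 at the 8-cell stage, and most of it came from Tmprss2, at 9176 ± 2000 in blastocysts (SD, n = 4). The sum over 8 primitive endoderm genes was 1932 to 2488 at the 8-cell stage and 1818 to 2204 in blastocysts, which overlap. Sums for 4 sperm genes and 3 genes of blood and reproductive tract were at most 443.3 and 226.4 on any array. The median intensity of an array was 67.8 to 93.3, and precision is limited by having 4 arrays per stage.

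The start-site windows of L1td1 and Il6st are shown because they differ in base composition. Each line runs from 250 bases before to 50 bases after the annotated start of transcription, 5′ to 3′ on the plus strand, in RefSeq's annotation of GRCm38.p6. The L1td1 window is chr4:98726504-98726803 and the Il6st window is chr13:112463820-112464119. Capitals mark the CCAAT and GC boxes that were found.
L1td1: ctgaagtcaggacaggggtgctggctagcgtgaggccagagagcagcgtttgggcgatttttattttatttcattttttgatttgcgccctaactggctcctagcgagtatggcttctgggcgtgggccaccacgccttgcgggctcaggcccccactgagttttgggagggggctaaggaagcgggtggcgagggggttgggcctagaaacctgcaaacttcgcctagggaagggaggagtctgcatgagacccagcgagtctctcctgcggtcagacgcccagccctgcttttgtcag
Il6st: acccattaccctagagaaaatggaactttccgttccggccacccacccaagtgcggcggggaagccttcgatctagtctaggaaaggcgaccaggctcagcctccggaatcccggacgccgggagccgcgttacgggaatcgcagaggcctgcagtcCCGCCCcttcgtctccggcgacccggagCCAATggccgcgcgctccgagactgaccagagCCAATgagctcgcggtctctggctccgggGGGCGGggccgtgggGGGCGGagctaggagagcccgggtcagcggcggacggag
The L1td1 window holds 14 CpG dinucleotides and is 58.7% G and C. The Il6st window holds 33 CpG dinucleotides and is 68.3% G and C. The median over 32851 such windows is 7 CpG dinucleotides. No more CpG than in L1td1 was found in 65.4% of the windows, and no more than in Il6st in 92.3%. Both strands were searched for 5 motifs. They were the STAT element TTCNNNGAA, present in 8.3% of all windows, the CCAAT box CCAAT (37.4%), the GC box GGGCGG (35.7%), the octamer ATGCAAAT (1.74%) and the TATA box TATAAA (13.6%). None of these motifs was found in the L1td1 window. The Il6st window has CCAAT at -65 and -33 and GC boxes at -93, -4 and 12, the one at -93 read as CCGCCC, with positions counted from the start site and no overlap between motifs. Rif1 is described by its array values.

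L1td1 was close to the floor of the array in oocytes and 1-cell embryos, appeared at the 2-cell stage, fell at the 8-cell stage and reached its highest level in blastocysts. The 4 oocyte arrays read 17.4, 11.8, 13.3 and 33.6 intensity units, and the 1-cell arrays 48.4, 5.5, 33.4 and 11.7. The 2-cell arrays read 878.9, 934.9, 930.0 and 969.9, and the 8-cell arrays 233.4, 290.7, 502.0 and 613.4. The blastocyst arrays read 5183.1, 5603.0, 11384.8 and 3049.1. Every 2-cell array thus lay above every oocyte and 1-cell array, every 8-cell array lay between the 1-cell and the 2-cell arrays, and every blastocyst array lay above all others. No array of the first 2 stages reached the table's median of 82.6, whereas all 12 arrays of the later stages did.

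**Figure D1:**
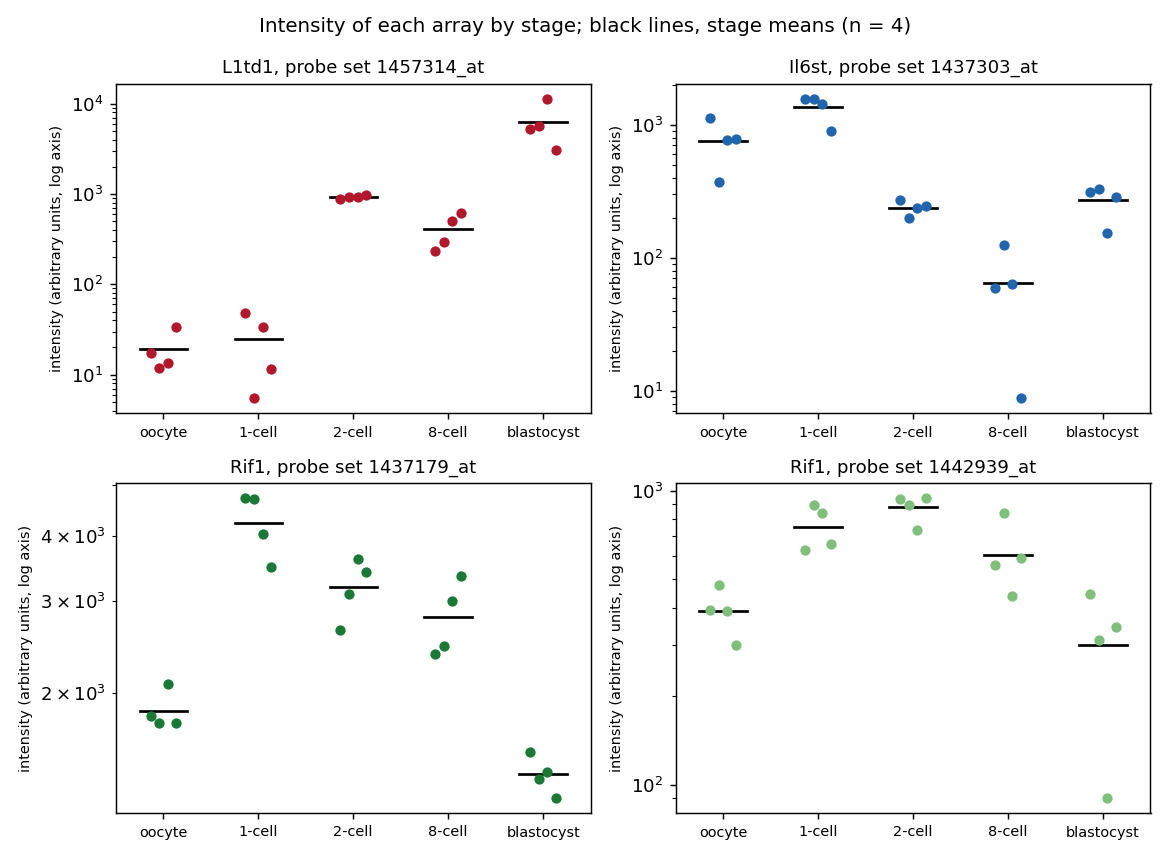
Intensity of each array (points, log axis, arbitrary units) by stage for the 4 probe sets, with black lines for the stage means of 4 arrays. L1td1 climbed past 3000 on every blastocyst array, Il6st dipped to 8.8 to 124.4 at the 8-cell stage, and both Rif1 probe sets had their lowest stage mean in blastocysts.

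The stage means of L1td1 were 19.02 ± 10 in oocytes, 24.8 ± 19.8 in 1-cell embryos, 928 ± 37.5 in 2-cell embryos, 410 ± 178 in 8-cell embryos and 6305 ± 3566 in blastocysts (SD, n = 4 each). The 2-cell arrays were the most even, with a coefficient of variation of 4.04%. Changes were tested with limma across all tested probe sets on the log2(intensity + 20) scale, which understates the change of dim genes, and an adjusted p under 0.05 after Benjamini-Hochberg adjustment was called. On that scale 1-cell embryos differed from oocytes by 0.12 (SE 0.34, adjusted p = 0.915), and the arrays of the 2 stages overlapped. Both stages lay where intensities cannot be separated from background, so a change among such low values could not be detected.

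The 2-cell rise of L1td1 was 4.52 on the log2 scale against the 1-cell stage (SE 0.34, adjusted p = 2.96e-10). Of all probe sets, 12.2% were called higher and 9.34% lower in 2-cell than in 1-cell embryos. The size depends on the constant added before the logarithm, because the 1-cell level is near zero: the rise was 22.9-fold with 20 added, 38.1-fold with 5 and 9.78-fold with 80. Its rank among the rises of 15234 probe sets was 42 with 20 added, 34 with 5 and 57 with 80. The call stood under each constant. The summed intensity of 6 cumulus and granulosa genes was 2689 to 3260 at the 2-cell stage, against 1073 to 1400 at the 1-cell stage, with Amhr2 at 2053 ± 284 as its largest term in 2-cell embryos (SD, n = 4), and its part in the 2-cell rise was not tested. The same holds for 2-cell embryos against oocytes, where L1td1 was higher by 4.63 (adjusted p = 2.15e-10) in a comparison that called 21.6% of probe sets in either direction.

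L1td1 then fell by 1.24 at the 8-cell stage against the 2-cell stage (SE 0.34, adjusted p = 0.00785). The ratio of the stage means was 0.441. In that step 14.1% of probe sets were called higher and 13.4% lower, and L1td1 had the 1268th largest fall, so a fall of this size was common. At this step the log2 ratio of the 3′ to the 5′ probe sets, which rises with loss of 5′ sequence, was 1.04 ± 0.386 at the 8-cell stage against 2.28 ± 0.345 at the 2-cell stage for Gapdh, and 1.93 ± 0.1 at the 8-cell stage against 2.33 ± 0.239 at the 2-cell stage for β-actin (SD, n = 4 each). The part of these ratios in the 8-cell changes of L1td1 and Il6st was not tested. The 8-cell level nevertheless stayed above the 1-cell level by 3.28 (adjusted p = 2.02e-08; 40.9% of probe sets called in either direction) and above the oocyte level by 3.40 (adjusted p = 1.26e-08; 40.0% called).

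Blastocysts had 15.4 times the mean L1td1 intensity of 8-cell embryos, a change of 3.82 on the log2 scale (SE 0.34, adjusted p = 1.53e-08). It ranked 17 among the rises of that step with 20 added, 33 with 5 and 8 with 80. In the step 7.98% of probe sets were called higher and 6.58% lower. Against the 2-cell stage the blastocyst level was 6.79 times as high (2.58 on the log2 scale, adjusted p = 1.56e-06; 29.9% of probe sets called in either direction). Between oocyte and blastocyst L1td1 rose by 7.21 (adjusted p = 1.52e-14), a size that again rests on the constant because the oocyte level cannot be separated from background. The fold was 148 and its rank 2 with 20 added, 249 and rank 2 with 5, and 58.1 and rank 4 with 80. In blastocysts against oocytes 21.6% of probe sets were called higher and 16.1% lower.

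The order of L1td1 levels was therefore blastocyst, 2-cell, 8-cell and then the 1-cell stage and oocyte, which did not differ beyond their spread. The blastocyst arrays differed more among themselves than those of any other stage in intensity units. Replicate 3 had 11384.8 and replicate 4 had 3049.1. Without replicate 3 the rise against the 8-cell stage was 3.48 (adjusted p = 9.32e-08). Replicate 3 also had the lowest Il6st value and the lowest 1442939_at value of the 4 blastocyst arrays, and its median correlation with the other 3 was 0.832, against 0.848 to 0.854 for those. On the 4 blastocyst arrays, in replicate order, the trophectoderm sum was 14550, 10970, 15340 and 10550, the primitive endoderm sum over 8 genes 1972, 1818, 1997 and 2204, and the sum over 23 other pluripotency and inner cell mass genes 18730, 20300, 19170 and 21840. The largest term of the last sum was Trim28, at 9557 ± 701 in blastocysts (SD, n = 4). The part of these sums in the L1td1 values was not tested.

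Il6st was well above the table's median in oocytes and 1-cell embryos, fell at the 2-cell stage and again at the 8-cell stage, and partly returned in blastocysts. The oocyte arrays read 1123.8, 374.4, 768.0 and 781.3, and the 1-cell arrays 1574.1, 1572.1, 1423.9 and 900.0. The 2-cell arrays read 271.6, 200.2, 236.0 and 245.8. The 8-cell arrays read 59.6, 124.4, 63.8 and 8.8, and the blastocyst arrays 314.6, 328.7, 152.5 and 284.8. All 8 arrays of oocytes and 1-cell embryos lay above the 12 later ones, and all 4 arrays of the 8-cell stage lay below every other array. Of the 8-cell arrays 1 reached the table's median, against 4 of 4 at each of the other stages.

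Mean Il6st intensity was 762 ± 306 in oocytes, 1368 ± 320 in 1-cell embryos, 238 ± 29.6 in 2-cell embryos, 64.2 ± 47.3 in 8-cell embryos and 270.1 ± 80.5 in blastocysts (SD, n = 4 each). The 1-cell mean was above the oocyte mean by 0.89 on the log2 scale (SE 0.36), but the arrays overlapped and the change was not called (adjusted p = 0.167). With 80 added before the logarithm in place of 20 it was called, at 0.83 and an adjusted p of 0.0457. In 1-cell embryos against oocytes 2.67% of probe sets were called higher and 4.26% lower. The 18S ribosomal RNA control on the array, which reads RNA without a poly(A) tail, had an intensity of 37010 ± 4510 at the 1-cell stage. It had 650.2 ± 197 in oocytes and 2004 ± 308 in 2-cell embryos (SD, n = 4 each). Its part in the 1-cell values, and in the changes of L1td1 and Il6st at the 2-cell step, was not tested.

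In 2-cell embryos Il6st fell by 2.40 against the 1-cell stage (SE 0.36, adjusted p = 1.54e-05), the 99th largest fall of that step. The mean was 0.174 of that at the 1-cell stage. Of the probe sets called in the step, 56.6% were higher at the 2-cell stage, or 40.6% when each array was centred on its median, and the fall of Il6st was called under both scalings. In 8-cell embryos it fell by 1.82 against the 2-cell stage (adjusted p = 0.000343), the 669th largest fall. The 8-cell mean was 0.0469 of the 1-cell mean, and the log2 change between these stages was -4.22 (adjusted p = 5.72e-10).

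Il6st was higher in blastocysts than in 8-cell embryos by 1.95 on the log2 scale (SE 0.36, adjusted p = 0.000361), with a ratio of means of 4.21. This was the 209th largest rise of that step with 20 added, against rank 180 with 5 and 333 with 80. With 80 added the rise was 2.48-fold in place of 3.86-fold. Without blastocyst replicate 3, at 152.5, the rise was 2.18 (adjusted p = 0.000218), and without 8-cell replicate 4, at 8.8, it was 1.5 (adjusted p = 0.00131), the lowest with any array left out. Without 8-cell replicate 4 the change in 8-cell against 2-cell embryos was -1.38 (adjusted p = 0.00142). The median correlation of that array with the other 3 of its stage was 0.818, the lowest of all 20 arrays, against 0.85 to 0.855 for those 3. The summed oocyte markers given above were likewise lowest at the 8-cell stage and higher in blastocysts, mainly through Khdc3 at 20820 ± 2270 in blastocysts against 3707 ± 500 at the 8-cell stage (SD, n = 4 each), and their part in the Il6st values was not tested. The blastocyst level differed from the 2-cell level by 0.12 (adjusted p = 0.848) and the arrays of those stages overlapped. The blastocyst level of Il6st was below the oocyte level, with a log2 change of -1.38 (adjusted p = 0.00332) and a ratio of means of 0.355. In that comparison 57.3% of called probe sets were higher in blastocysts, or 45.2% with median centring, and Il6st was called lower under both. The order of Il6st levels was thus 1-cell and oocyte, which did not differ at the threshold, then blastocyst and 2-cell, which did not either, and then the 8-cell stage.

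Rif1 was above the table's median on all 20 arrays by both probe sets, rose at the 1-cell stage and was lowest in the blastocyst. The oocyte arrays of 1437179_at read 1802.4, 1747.7, 2076.0 and 1750.2, and the 1-cell arrays 4716.1, 4693.0, 4031.1 and 3479.3. The 2-cell arrays read 2641.3, 3089.0, 3612.8 and 3405.8. The 8-cell arrays read 2374.4, 2461.6, 2994.0 and 3342.5, and the blastocyst arrays 1541.4, 1366.3, 1407.0 and 1256.1. Every array of the 1-cell, 2-cell and 8-cell stages lay above every oocyte array, and every blastocyst array lay below all others. The 2-cell arrays overlapped those of the 1-cell and of the 8-cell stage.

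The means of this Rif1 probe set were 1844 ± 157 in oocytes, 4230 ± 593 in 1-cell embryos, 3187 ± 423 in 2-cell embryos, 2793 ± 457 in 8-cell embryos and 1393 ± 118 in blastocysts (SD, n = 4 each). The 1-cell level of Rif1 was 2.29 times the oocyte level, or 1.18 on the log2 scale (SE 0.16, adjusted p = 1.41e-05), the 155th largest rise of that step. The 18S intensities given for Il6st move with the same step, and their part in the rise was not tested. With quantile normalization the rise was 1.01 and was still called (adjusted p = 0.000175).

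The second Rif1 probe set, 1442939_at, read 394.3, 477.1, 391.6 and 299.0 in oocytes and 626.3, 892.0, 837.5 and 658.9 at the 1-cell stage. It read 939.0, 890.9, 737.5 and 941.7 at the 2-cell stage, 558.8, 839.0, 437.3 and 590.9 at the 8-cell stage and 446.1, 310.7, 90.4 and 344.6 in blastocysts. Its means were 390.5 ± 72.8, 754 ± 131, 877 ± 96.1, 606.5 ± 169 and 298 ± 150 in the same order of stages (SD, n = 4 each). All 1-cell arrays lay above all oocyte arrays here too, and the difference of 0.92 on the log2 scale missed the threshold (SE 0.30, adjusted p = 0.0651). At the 2-cell stage it was higher than in oocytes by 1.14 (adjusted p = 0.00603). Over the 20 arrays the log2 values of the 2 Rif1 probe sets had a Pearson r of 0.737. The arrays share their stage, so this is a description only.

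Between the 1-cell and 8-cell stages the steps of Rif1 were not called. For 1437179_at the 2-cell level differed from the 1-cell level by -0.40 on the log2 scale (adjusted p = 0.0702), and the 8-cell level differed from the 2-cell level by -0.19 (adjusted p = 0.405). Over both steps together, the change of 8-cell against 1-cell embryos was -0.60 and was called (adjusted p = 0.0033). Under quantile normalization it was 0.18 (adjusted p = 0.418). For 1442939_at the 2-cell level differed from the 1-cell level by 0.22 (adjusted p = 0.674), the 8-cell level from the 2-cell level by -0.55 (adjusted p = 0.187), and the 8-cell level from the 1-cell level by -0.33 (adjusted p = 0.413).

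In blastocysts Rif1 was lower than in 8-cell embryos by both probe sets. For 1437179_at the level fell by 0.98 (SE 0.16, adjusted p = 6.41e-05), to 0.499 of the 8-cell mean, the 879th largest fall of that step. For 1442939_at it fell by 1.12 (SE 0.30, adjusted p = 0.0103), although blastocyst replicate 1 at 446.1 lay above 8-cell replicate 3 at 437.3. Without blastocyst replicate 3, at 90.4, the change of 1442939_at was -0.67 and still called (adjusted p = 0.0328). In a fit of these 2 stages alone it was not called (adjusted p = 0.0716). Against the 2-cell stage both probe sets were lower in blastocysts, with changes of -1.18 for 1437179_at (adjusted p = 1.72e-06) and -1.67 for 1442939_at (adjusted p = 8.33e-05). The log2 ratio of the 3′ to the 5′ probe sets for β-actin was 1.09 ± 0.274 in blastocysts against 1.93 ± 0.1 at the 8-cell stage (SD, n = 4 each), that for Gapdh was 2.38 ± 0.47 in blastocysts against 1.04 ± 0.386 at the 8-cell stage, and their part in the changes of Rif1, L1td1 and Il6st at the blastocyst step was not tested.

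The net difference between blastocysts and oocytes was small for Rif1. By 1437179_at, the change was -0.40 on the log2 scale (adjusted p = 0.048), a call that was lost when any 1 of 13 of the 20 arrays was left out and under quantile normalization, where the difference was 0.02 (adjusted p = 0.936). By 1442939_at the difference was -0.53 and was not called (adjusted p = 0.174). The order of levels by 1437179_at was 1-cell, 2-cell, 8-cell, oocyte and blastocyst, in which neither the 1-cell and 2-cell levels nor the 2-cell and 8-cell levels differed at the threshold. The 8-cell level exceeded the oocyte level by 0.58 (adjusted p = 0.00422), though by 0.33 with median centring (adjusted p = 0.134). By 1442939_at the order was 2-cell, 1-cell, 8-cell, oocyte and blastocyst, and no 2 neighbours differed at the threshold.

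**Figure D2:**
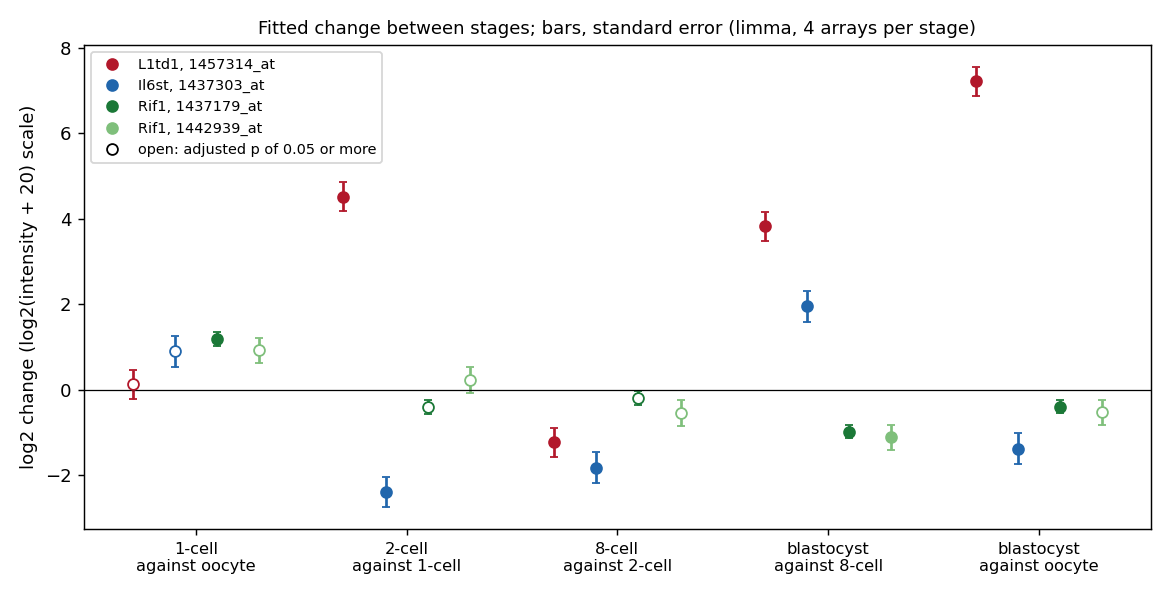
Fitted log2 change of the 4 probe sets in each comparison, later stage against earlier stage, on the log2(intensity + 20) scale, with bars for the standard error; filled points passed an adjusted p of 0.05 and open points did not. L1td1 changed by 4.52 at the 2-cell stage and 3.82 at the blastocyst stage, Il6st by -2.40 and 1.95, and Rif1 1437179_at rose by 1.18 at the 1-cell stage.

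L1td1 and Il6st were called at the same 3 steps, in opposite directions at the 2-cell stage and in the same direction at the 8-cell and blastocyst stages, and Rif1 was called at the 1-cell step by 1 probe set and at the blastocyst step by both. L1td1 shared its 4 calls (no call, higher, lower, higher) with 30 other probe sets, 0.203% of those tested including itself. Of the 24 named genes among the 31, Uck2, Ddx46, Drosha and Uhrf2 are examples chosen after their values were seen. The calls of Il6st (no call, lower, lower, higher) were held by 112 probe sets, or 0.735%, standing for 103 named genes. Those of Rif1 1437179_at (higher, no call, no call, lower) were held by 9 probe sets, or 0.0591%, whose named genes were Atxn7, Lbhd2, Pan3, Ptprs, Tnpo1 and Rif1 itself. Those of Rif1 1442939_at (no call at 3 steps, then lower) were held by 238 probe sets, or 1.56%. Across the 20 arrays the Pearson r of log2 values was -0.571 between L1td1 and Il6st, -0.44 between L1td1 and Rif1 1437179_at, and 0.158 between Il6st and Rif1 1437179_at, as descriptions over arrays that share stages and amplification.

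**Figure D3:**
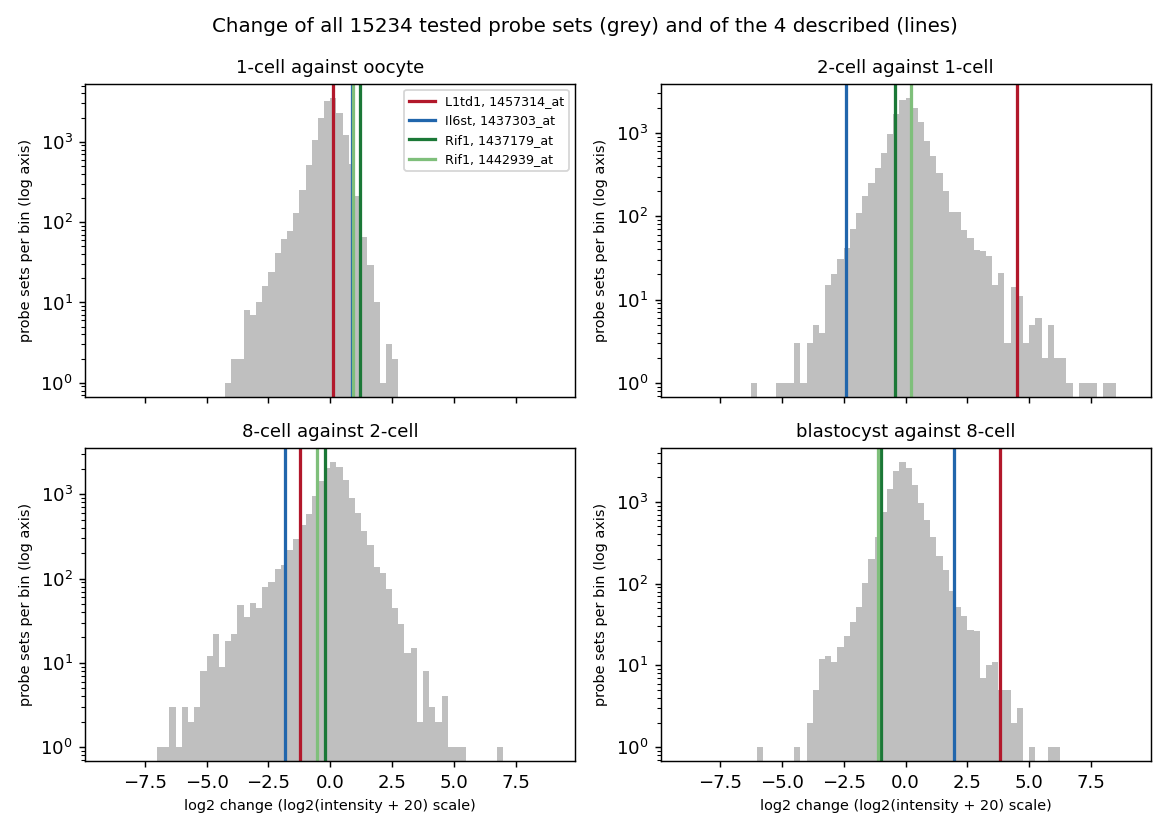
Number of tested probe sets (grey, log axis) by log2 change in each of the 4 consecutive comparisons, with lines for the 4 probe sets; in the comparison of 1-cell embryos with oocytes the Il6st line at 0.89 lies under the Rif1 1442939_at line at 0.92. L1td1 stood in the upper tail of the 2-cell and blastocyst steps, with changes of 4.52 and 3.82, and the Rif1 lines lay nearer the middle of the 2-cell and 8-cell steps.

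The 5 named genes whose log2 values ran most like L1td1 over the 20 arrays were Trp53bp2 (r = 0.958), Fzd5 (0.954), Ddr2 (0.949), Uck2 (0.949) and Nars2 (0.945). Trp53bp2, a binding partner of p53, had mean intensities of 242 ± 33.5 in oocytes, 246 ± 54 in 1-cell embryos, 527 ± 28.1 in 2-cell embryos, 411 ± 84.7 in 8-cell embryos and 1248 ± 263 in blastocysts (SD, n = 4). Like L1td1 it had a lower mean in 8-cell than in 2-cell embryos. Fzd5, a Wnt receptor, had 369 ± 209 at the 8-cell against 288 ± 47.3 at the 2-cell stage, a difference smaller than its 8-cell SD. L1td1 had the lowest share of its blastocyst level in oocytes of the 6 genes.

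The genes most like Il6st were Btbd9 (r = 0.955), Cep164 (0.946), Msrb3 (0.942), Gzf1 (0.942) and Mrtfb (0.941). Msrb3, a methionine sulfoxide reductase, had means of 666 ± 133 in oocytes, 1069 ± 86.9 in 1-cell embryos, 208.5 ± 70.1 in 2-cell embryos, 50.2 ± 29.2 in 8-cell embryos and 146 ± 29.8 in blastocysts (SD, n = 4). Each of the 5 had its lowest mean at the 8-cell stage, as Il6st did. The genes most like Rif1 1437179_at were Pan3 (r = 0.881), Brwd3 (0.855), Tgfb2 (0.849), Elk4 (0.845) and Rmnd5a (0.845). Pan3, a subunit of a poly(A)-removing nuclease, had means of 583 ± 26.9 in oocytes, 1208 ± 230 in 1-cell embryos, 1148 ± 177 in 2-cell embryos, 834 ± 75.5 in 8-cell embryos and 563 ± 160 in blastocysts (SD, n = 4). When Spearman's rho was used, 2 of the 5 genes stayed for L1td1, 1 for Il6st and 3 for Rif1.

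**Figure D4:**
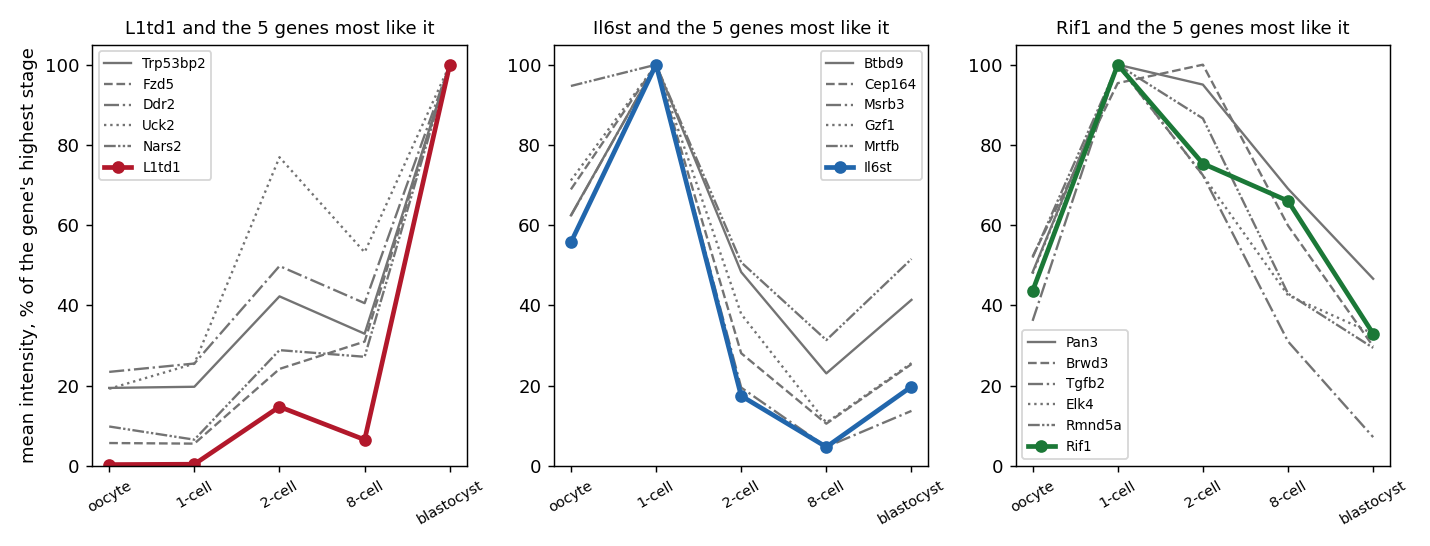
Mean intensity by stage, as a percentage of each gene's highest stage (n = 4 arrays per stage), for L1td1, Il6st and Rif1 1437179_at (coloured) and the 5 genes most like each (grey). The genes were picked for this likeness, and L1td1, Fzd5 and Nars2 were the lowest in oocytes relative to blastocysts.

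In the signalling pathway around Il6st, 17 of 64 listed genes could be tested. The ligand gene Osm had an intensity of 298 ± 71.2 in blastocysts against 198 ± 37.8 in oocytes (adjusted p = 0.105), and Osmr, the receptor chain that pairs with gp130 for oncostatin M, had 164 ± 13.1 in blastocysts against 133 ± 56 in oocytes (adjusted p = 0.497). Neither was called at any step. Stat3, the transcription factor downstream of gp130, had 97.3 ± 29.3 in blastocysts against 32.2 ± 37.4 in oocytes and rose by 1.37 (adjusted p = 0.0371), although its oocyte level lies in the range that cannot be separated from background. Among the feedback inhibitors, Socs2 was called at no step, and Socs4 rose by 2.98 at the 2-cell stage (adjusted p = 3.45e-08) after a 1-cell change of -1.43 (adjusted p = 0.00261). Socs4 means were 73.9 ± 32.7 in oocytes and 14.7 ± 11.8 in 1-cell embryos (SD, n = 4 each). Both lie in the range that cannot be separated from background. Socs7 rose at the 1-cell stage by 0.91 (adjusted p = 0.00193) and then changed by -1.02, -1.81 and -0.77 at the following steps. The kinase gene Tyk2 was too dim to test, with a mean of 163 at the 2-cell stage and at most 45.9 at any other, and so was Socs6, with its highest mean of 89.3 in blastocysts. Among kinases further downstream, Nlk rose at the 8-cell stage by 1.58 (adjusted p = 0.00218) and Yes1 by 1.16 (adjusted p = 0.00983), while Akt1 and Pik3ca were called at no step.

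Only Gab2 and Pik3r1, which carry gp130 signals towards the MAP kinase and PI3 kinase routes, had the same 4 calls as Il6st among these 17 genes. Of all tested probe sets 0.735% had these calls. Gab2 had 1229 ± 282 in blastocysts against 203 ± 34.3 at the 8-cell stage, a rise of 2.47 (adjusted p = 2.9e-08), after changes of -0.98 and -0.67 at the 2 preceding steps. Pik3r1 had 530.1 ± 63.5 in blastocysts against 279 ± 68.1 at the 8-cell stage, a rise of 0.90 (adjusted p = 0.00101). In blastocysts against oocytes 6 of the 17 genes rose and 3 fell (35.3% and 17.6%, against 21.6% and 16.1% of all), and their median change was 0.32, against 0.12 over all tested probe sets. Of 28 listed Stat3 targets in stem cells only Klf5 was measured, with stage means of 53.0 to 86.7 and no call.

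Of the RNA-binding partners and LINE-1 regulators listed around L1td1, 27 of 56 could be tested. None had the 4 calls of L1td1, which only 0.203% of all tested probe sets had. At the blastocyst step 6 rose and 4 fell (22.2% and 14.8%, against 7.98% and 6.58% of all). Zc3hav1, an antiviral RNA-binding protein, rose by 2.33 (adjusted p = 7.97e-07), with 2084 ± 732 in blastocysts against 384 ± 57.8 at the 8-cell stage. Igf2bp3, an mRNA-binding protein read by a probe set of the x_at type, which can read related transcripts, rose by 2.11 (adjusted p = 6.76e-09). Dcp2, the mRNA decapping enzyme, rose by 1.73 (adjusted p = 1.12e-07), and Pphln1, a subunit of the silencing complex HUSH, changed by -1.87 (adjusted p = 1.06e-07). Lin28b, which is also on the pluripotency list and of the family that partners L1TD1 in human stem cells, fell by 1.88 in blastocysts against the 8-cell stage (adjusted p = 0.000539), with 5.40 ± 1.99 in blastocysts against 83.8 ± 56.4 at the 8-cell stage. At the 8-cell step 13 rose and 3 fell, or 48.1% and 11.1% of the list against 14.1% and 13.4% of all tested probe sets. Among them were Ago2, an Argonaute protein, with a change of 2.76 (adjusted p = 8.77e-10), Rnaseh2b, a subunit of the enzyme that cuts RNA in hybrids with DNA, with a change of 5.02 (adjusted p = 3.79e-09), and Mael, a piRNA factor, with -2.55 (adjusted p = 3.02e-10). In 1-cell embryos against oocytes 1 rose and 8 fell (3.7% and 29.6%, against 2.67% and 4.26% of all), and in 2-cell against 1-cell embryos 8 rose and 2 fell (29.6% and 7.41%, against 12.2% and 9.34% of all). Median centring gave 5 higher and 4 lower at the 2-cell step. Over all tested probe sets it moved the counts from 1859 higher and 1423 lower to 1357 and 1985. Without that centring the median change of the list at this step was -0.10, against 0.07 over all tested probe sets. The median change in blastocysts against oocytes was 0.34, against 0.12 over all tested probe sets, with 12 genes higher and 4 lower (44.4% and 14.8%, against 21.6% and 16.1% of all).

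Around Rif1, 30 of 75 listed genes of end protection, replication control and silencing were tested. Trp53bp1, which recruits Rif1 to broken ends, was called at no step. At the 1-cell stage, where Rif1 1437179_at rose, no gene of the list was called higher and 3 of 30 fell, against 2.67% higher and 4.26% lower of all tested probe sets. They were the telomere factor Stn1 with a change of -1.85 (adjusted p = 0.000226), Shld2 with -1.17 (adjusted p = 0.0137) and the replicative helicase subunit Mcm5, read by an x_at probe set, with -1.06 (adjusted p = 0.000148). At an unadjusted p under 0.05 4 of the list were higher and 5 lower in limma, a threshold at which all probe sets were not counted. Leaving out any 1 of 8 arrays gave 1 adjusted call higher in the list. At the blastocyst step, where Rif1 fell, 4 genes rose and 1 fell (13.3% and 3.33%, against 7.98% and 6.58% of all). Those that rose included Suv39h2, a histone methyltransferase (1.69, adjusted p = 2.48e-05), Mcm5 (0.96, adjusted p = 0.000217) and Shld2, a shieldin subunit (1.42, adjusted p = 0.0013). The single fall there was that of Cdc45, a replication helicase factor, at -1.40 (adjusted p = 0.0293), and it is named because it was the only one. It was not called when 8-cell replicate 4 or blastocyst replicate 1, 2 or 3 was left out. With array weights, with 5 added or with the 75th percentile filter, no gene of the list was called lower at that step. At the 2-cell stage 5 rose and 4 fell (16.7% and 13.3%, against 12.2% and 9.34% of all). With median centring 7 of the list fell, while the falls called over all tested probe sets went from 1423 to 1985. In the list the smallest p-values were those of Atm, the kinase upstream of Trp53bp1 and Rif1, which rose by 2.45 (adjusted p = 1.73e-07), and Terf2, of the telomere cap, which fell by 1.37 (adjusted p = 7.32e-07). In blastocysts against oocytes 11 rose and 5 fell (36.7% and 16.7%, against 21.6% and 16.1% of all), with a median change of 0.25.

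Of 69 other listed pluripotency and inner cell mass genes, only 23 were on the array, and all 23 were tested. Among these, 14 rose and 5 fell in blastocysts against oocytes (60.9% and 21.7%, against 21.6% and 16.1% of all), with a median change of 0.88. In the list 9 rose when arrays were centred on their medians. That centring also moved the counts over all tested probe sets, from 3292 higher and 2449 lower to 2538 and 3083. None of the 23 genes had the 4 calls of L1td1, which only 0.203% of all tested probe sets had. Tet1, a 5-methylcytosine oxidase, also rose at both the 2-cell step, by 1.79 (adjusted p = 1.85e-05), and the blastocyst step, by 1.44 (adjusted p = 0.000464), but at the 8-cell step it rose by 1.26 (adjusted p = 0.000889) where L1td1 fell. Tet1 means were 57.1 ± 33.8 in oocytes, 71.5 ± 27.6 in 1-cell embryos, 291 ± 61.2 in 2-cell embryos, 735 ± 207 in 8-cell embryos and 1997 ± 385 in blastocysts (SD, n = 4). Prdm14, a repressor known from stem cells and germ cells, rose at the 2-cell step by 1.68 (adjusted p = 0.000945) and was not called at the next 2 steps. The list also holds genes with high levels in oocytes. Klf17 had means of 4930 ± 704 in oocytes and 10420 ± 2020 in 2-cell embryos (SD, n = 4). It rose by 0.82 at the 2-cell step (adjusted p = 0.00327). In blastocysts against the 8-cell stage Klf17 fell by 4.32 (adjusted p = 2.1e-13). Ooep, a subunit of the oocyte's subcortical complex, had the 4 calls of Il6st. Those calls were held by 0.735% of all tested probe sets. At the 1-cell step no gene of the list was called by limma, against 2.67% higher and 4.26% lower of all tested probe sets. At an unadjusted p under 0.05 in limma 2 were higher and 1 lower. The share of all probe sets past that unadjusted threshold was not counted.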

How the data were processed

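The table deposited by the authors, per the labels a total RNA experiment on 20 arrays, gives 1 intensity on a linear scale for each probe set and array. The sources used here name neither the software nor the scaling target. Stages and replicate numbers came from the sample titles, and nothing in the labels says what a number shares across stages. Of 22575 probe sets, 64 controls were left out. Symbols came from the platform annotation through Entrez identifiers and the gene table of GRCm38.p6, which held 14486 of the 14661 probe sets with 1 symbol; 245 carry several symbols and 7605 none. The table has no detection calls.

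Intensities were used as deposited, as log2(intensity + 20), for the 15234 probe sets that reached 82.6, the median of the whole table, on 4 or more arrays. Stage means were fitted over all 20 arrays with limma 3.58.1 in R 4.3.3 (eBayes with an intensity trend, 15 residual degrees of freedom), with Benjamini-Hochberg adjustment over all tested probe sets in each comparison and an adjusted p under 0.05 called. The fit was tested on simulated data. Genes with several probe sets are represented by the brightest over all arrays. Alternatives were other added constants (5 and 80), filters (none, or the 75th percentile of 188.8), quantile normalization, median centring, no trend, array weights, the 2 stages alone, a replicate block, and each array left out in turn.

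The 3 genes, the gene lists and the naming rule were chosen with earlier results of these data known. Named were all probe sets of the 3 genes, the 5 genes most correlated with each (1 symbol, not x_at, not a clone name), and, from each list and step, genes among the 4 called with the smallest p, with the gp130 list's ligands, receptors, kinases, Stat and Socs genes whatever their test; Cdc45 and 4 genes that share the calls of L1td1 were named after their values were seen. Lists were described by counts and medians, with no set test. Promoter windows are those of RefSeq for GRCm38.p6; probe positions were not used here. Intensities of different probe sets were set side by side only in summed lists and their largest terms, and to pick a gene's brightest probe set. Otherwise they were not compared, since their affinities differ. No sample was dropped or imputed in the reported fit.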

Additional observations from a re-analysis of the deposited data

Results flagged for a closer look

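One array stood apart from the other 3 of its stage. For Rif1 1437179_at, oocyte replicate 3 had an intensity of 2076.0, against 1747.7 to 1802.4 on the other 3 oocyte arrays, and its gap to the nearest was above the critical value of Dixon's test for 4 values. This was 1 of 20 groups of 4 arrays checked over the 4 probe sets, and chance alone gives about 1 in 20.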

How the results depend on the processing

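Every call of L1td1 and Il6st stood under all alternatives run. Of 150 repeats each over 5 comparisons, 148 of L1td1, 149 of Il6st, 127 of Rif1 1437179_at and 139 of Rif1 1442939_at kept direction and side of the threshold. With an array left out in turn, L1td1 in 1-cell embryos against oocytes ran from -0.122 to 0.353, turning below 0 without 1-cell replicate 1 (-0.122, adjusted p = 0.933) and replicate 3 (-0.0028, adjusted p = 0.999). Il6st in that step was called with 80 added (0.833, adjusted p = 0.0457). Rif1 1437179_at in 2-cell against 1-cell embryos was called with the 75th percentile filter (-0.405, adjusted p = 0.0428), array weights (-0.404, adjusted p = 0.0454) and median centring (-0.589, adjusted p = 0.012), reversed to 0.0373 under quantile normalization (adjusted p = 0.915), and ran from -0.495 to -0.318 with an array left out, called without 1-cell replicate 4 (-0.495, adjusted p = 0.0312). In 8-cell against 2-cell embryos it reversed to 0.141 under quantile normalization (adjusted p = 0.571), and in 8-cell against 1-cell embryos to 0.178. In blastocysts against oocytes its call was lost with no filter (-0.400, adjusted p = 0.0609), no trend (-0.400, adjusted p = 0.089), the replicate block (-0.400, adjusted p = 0.0604) and quantile normalization (0.0217, adjusted p = 0.936), and it ran from -0.449 to -0.343 with an array left out (adjusted p = 0.0386 to 0.135). Rif1 1442939_at in 1-cell embryos against oocytes was called with the 75th percentile filter (0.916, adjusted p = 0.0471), array weights (1.02, adjusted p = 0.00951), the 2 stages alone (0.916, adjusted p = 0.00549), 80 added (0.825, adjusted p = 0.0321) and the replicate block (0.916, adjusted p = 0.0455), and ran from 0.801 to 1.01 with an array left out, called without blastocyst replicate 1 (adjusted p = 0.0442) and without blastocyst replicate 3 (adjusted p = 0.00297). Its 8-cell against 2-cell change was called with the 2 stages alone (-0.549, adjusted p = 0.0472) and ran from -0.713 to -0.41, called without blastocyst replicate 3 (adjusted p = 0.0359). Its blastocyst against 8-cell call was lost with the 2 stages alone (-1.12, adjusted p = 0.0716). Its blastocyst against oocyte change ran from -0.775 to -0.0823, called without blastocyst replicate 1 (adjusted p = 0.046). The cause of these changes was not tested. The median change of all tested probe sets was 0.18 as deposited, 0.03 with quantile normalization and -0.07 with median centring in 8-cell embryos against oocytes, 0.12, 0.01 and -0.07 in blastocysts against oocytes, and 0.07, -0.02 and -0.11 in 2-cell against 1-cell embryos. The number called higher in 1-cell embryos against oocytes was 406, against 612 with array weights and 257 without 1-cell replicate 2. The other 448 of 450 counts over all probe sets stayed within 1.5 times. List counts moved past 1.5 times in 45 repeats. By single arrays, the pluripotency list had 1 gene lower in place of 2 at the 2-cell step without 1-cell replicate 2 or 2-cell replicate 4, the gp130 list 2 higher in place of 1 at the 1-cell step without oocyte replicate 3, the Rif1 list 3 higher in place of 5 at the 2-cell step without 1-cell replicate 2, and the L1td1 list 0 higher in place of 1 at the 1-cell step without 1-cell replicate 1 or 2 or oocyte replicate 2, 1 lower in place of 2 at the 2-cell step without 1-cell replicate 1 or 2 or 2-cell replicate 2 or 4, and 2 lower in place of 4 at the blastocyst step without blastocyst replicate 2 or 3. The replicate numbers did not pair the arrays: over 40 same-numbered pairs r was -0.0616 to 0.0635, 4 of 20 arrays correlated best with their own number, and the block changed no other call of the 4 probe sets. Without detection calls, levels below the table's median could not be separated from background, which limits L1td1 in oocytes and 1-cell embryos and Il6st at the 8-cell stage. The limit also applies to named list genes with a stage mean below that median, such as Socs4, Lin28b, Rnaseh2b, Atm and Suv39h2.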
